A study of Homo sapiens with 4 samples.

Results

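To investigate the machinery that builds ribosomes after loss of LDB1, 42 genes of ribosome biogenesis factors were taken from a table of 28412 genes by their gene symbols. They were a chosen list of nucleolar genes, many of them known to depend on MYC. The list was drawn up with earlier results of these data known, although its rule uses symbols and no measured value. RNA-seq was performed on 4 libraries of cells labelled NB4, a human promyelocytic leukemia line. The control vector sh-NC (genotype "control") was present in 2 of these libraries, while the other 2 came from cells with sh-LDB1, a vector whose shRNA targets LDB1 (genotype "LDB1 knockdown"). Knockdown in the study used the lentiviral vector pLKO.1 with puromycin selection, and the labels named the control cells as untreated, did not say which of the study's shRNAs was sequenced, and did not say that replicates came from separate cultures, so the p-values measured only the spread between these libraries, which may be technical. LDB1 is the LIM domain-binding adaptor of a transcription complex that also holds LMO2.

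Ribosome biogenesis begins in the nucleolus, where RNA polymerase I copies the ribosomal DNA into 1 long precursor. Small nucleolar ribonucleoproteins (snoRNPs) modify this precursor, and separate groups of assembly factors then fold and cut it into the small and the large subunit. The transcription factor MYC, with its partner MAX, binds E-box sequences in many of these genes, and their products are usually abundant in growing leukemia cells.

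The deposited values were FPKM, read fragments scaled to the length of the gene and the depth of the library, so that levels could be compared between genes of different length. A difference is given as a log2 fold change, the mean log2(FPKM + 1) of sh-LDB1 minus that of sh-NC, with its standard error (SE). This scale understates the change of genes of low level. Genes averaging 1 FPKM or more over the 4 libraries, 13300 in all, were tested with limma, and Benjamini-Hochberg adjustment of the p-values covered all of them. "Fell" and "rose" are used for an adjusted p below 0.05.

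The steps between FPKM values gave the divisor of each library, which lay between 14746000 and 16182000. This divisor includes a scaling applied before deposit, so it need not equal the number of reads sequenced. The targeted gene was checked first. LDB1 was 135.1 and 120.1 FPKM in sh-NC and 10.2 and 9.47 FPKM in sh-LDB1, 7.73% of the control mean (log2 fold change -3.56, SE 0.077, limma adjusted p = 6.93e-05). MYC was 159.1 and 160.9 FPKM in sh-NC against 27.3 and 28.1 FPKM in sh-LDB1, 17.3% of the control mean (log2 fold change -2.49, SE 0.040, limma adjusted p = 6.77e-05). Several markers went against the label of a promyelocytic line. The study's report of short tandem repeats matched its NB4 cells to the reference profile, without naming the cells sequenced here. ELANE (neutrophil elastase) was listed at 0 in both sh-NC libraries. Of the 7 promyelocytic markers with values, 5 were at 1 FPKM or more in every library. The 7 summed to only 12.6 and 11.7 FPKM in sh-NC and to 41.4 and 37.9 FPKM in sh-LDB1. Of the 6 tested, 4 rose and 2 did not pass the test, with log2 fold changes from -0.58 (CEBPE) to 2.25 (CSF3R). MPO and CTSG were not analysed here. The 13 erythroid markers were all at 1 FPKM or more in both sh-NC libraries. They summed to 3134 and 3411 FPKM in sh-NC and to 274.0 and 240.2 FPKM in sh-LDB1, and all 12 of those tested fell (median log2 fold change -3.37). The 5 T and B cell markers summed to 25.2 and 22.6 FPKM in sh-NC and to 49.1 and 51.7 FPKM in sh-LDB1, mostly CD3D. The part of this marker shift in the results that follow was not tested, and in bulk RNA fewer cells of a type and less RNA per cell cannot be told apart.

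Results showed that the ribosome biogenesis factors were lower in sh-LDB1 as a group. Of the 41 members tested, 36 fell, 0 rose and 5 did not pass the test. Among all 13300 genes tested, 37.4% fell and 29.9% rose. At an unadjusted p below 0.05 the number of members higher was also 0, and it was 2 with voom on reads estimated from the FPKM. The median log2 fold change of the members was -0.94, against -0.08 for all genes tested and -0.15 for the 7506 genes averaging 5 FPKM or more. The median member stood at 49.4% of its control mean, whereas the median gene stood at 93.6%. Together the 42 members took 0.672% and 0.674% of the summed FPKM in sh-NC, but only 0.410% and 0.413% in sh-LDB1.

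A fall past 2-fold was found for 19 members, compared with 10.3% of all genes tested, and a rise past 2-fold for 0 members, compared with 9.5% of all genes. In 36 members both sh-LDB1 values lay under both sh-NC values, a pattern held by 46.3% of genes tested. In 1 member both lay above, a pattern held by 38.3%, and in 4 members the groups overlapped. Of the 36 falls, 33 were kept under all of the 14 alternative settings of processing in which the gene was tested. The exceptions were GAR1, TSR1 and WDR43. Of the 19 falls past 2-fold, 12 were kept under all of these settings, and with libraries scaled to an equal sum of FPKM the number past 2-fold was 12. Those not kept past 2-fold were BOP1, MRTO4, NHP2, NOLC1, POLR1A, UTP15 and UTP20.

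**Figure D1:**
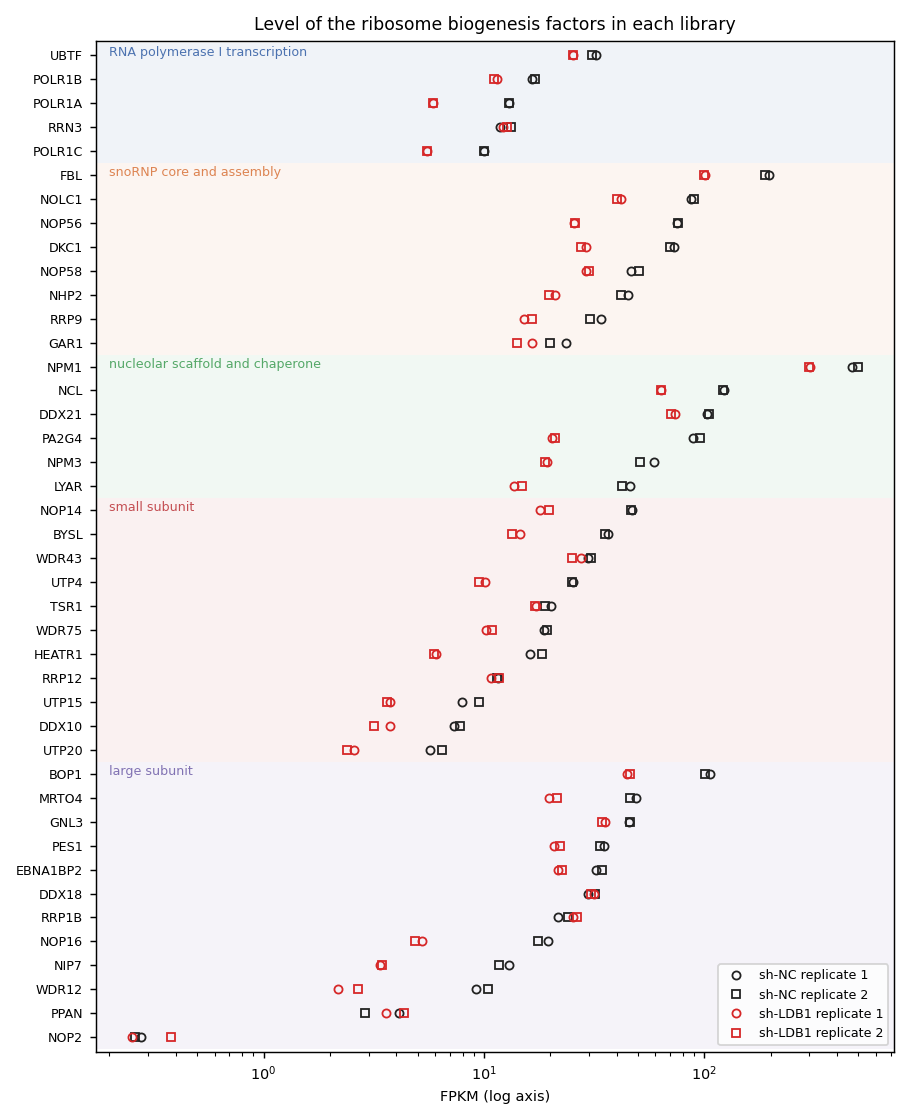
Level of each of the 42 ribosome biogenesis factors in FPKM (log axis) in the 4 libraries, grouped by role and ordered by mean control level. Black symbols are sh-NC and red symbols sh-LDB1, with circles for replicate 1 and squares for replicate 2. For 36 genes both red symbols lie to the left of both black ones, and NPM1 is the most abundant of all while NOP2 lies under 1 FPKM.

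Levels in the control cells spanned a wide range. NPM1, the nucleolar chaperone that is often mutated in acute myeloid leukemia, was the most abundant member at 468.9 and 498.6 FPKM. FBL followed at 196.3 and 188.7 FPKM, and NCL at 123.4 and 121.5 FPKM. The least abundant of the members tested was PPAN at 4.14 and 2.89 FPKM. Depth was therefore uneven across members, with an estimated 37399 to 63057 reads per library for NPM1 and 122 to 193 for PPAN.

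The first role was transcription of the ribosomal DNA by RNA polymerase I. Of the 5 members with this role 4 fell, and their median log2 fold change was -0.53. POLR1A, the largest subunit of the polymerase, was 13.0 and 13.1 FPKM in sh-NC and 5.90 and 5.85 FPKM in sh-LDB1. It was the only one of the 5 past 2-fold (log2 fold change -1.03, SE 0.049, limma adjusted p = 0.000178). This 2-fold call was lost with libraries scaled to an equal sum (log2 fold change -0.88) and after quantile normalization (-0.93). POLR1C, a subunit shared by RNA polymerases I and III, was 9.99 and 10.1 FPKM in sh-NC and 5.53 in both sh-LDB1 libraries (log2 fold change -0.76, SE 0.051, limma adjusted p = 0.000405). The second largest subunit, POLR1B, was 16.4 and 17.0 FPKM against 11.5 and 11.1 FPKM (log2 fold change -0.53, SE 0.050, limma adjusted p = 0.00102). Both groups of these 3 subunits were clearly apart.

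Of 2 factors that act with the polymerase at the ribosomal DNA, UBTF fell and RRN3 did not pass the test. UBTF, which binds the ribosomal DNA and keeps it open, was 32.4 and 31.1 FPKM in sh-NC and 25.3 and 25.4 FPKM in sh-LDB1. It fell to 80.0% of control (log2 fold change -0.31, SE 0.044, limma adjusted p = 0.00367). With libraries scaled to an equal sum the log2 fold change of UBTF was -0.14 (limma adjusted p = 0.0467), and after quantile normalization it was -0.18. RRN3, the initiation factor that joins the polymerase to the promoter, was 11.8 and 13.3 FPKM in sh-NC and 12.2 and 12.7 FPKM in sh-LDB1. The sh-LDB1 values of RRN3 lay between those of the controls (log2 fold change -0.01, SE 0.072, limma adjusted p = 0.936), and the sign turned with the scaling of the libraries. The table also held 2 rows of RRN3 pseudogenes, with which reads may have been shared.

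The second role was the core of the snoRNPs and their assembly, and all 8 members with this role fell, 4 of them past 2-fold (median log2 fold change -1.02). NOP56, a core protein of the box C/D snoRNPs that guide methylation of ribosomal RNA, was 75.1 and 75.8 FPKM in sh-NC and 25.7 and 25.9 FPKM in sh-LDB1. This was a fall to 34.2% of control (log2 fold change -1.51, SE 0.038, limma adjusted p = 8.04e-05). FBL (fibrillarin), the methyltransferase of the same particle, was 196.3 and 188.7 FPKM against 100.4 and 99.8 FPKM (log2 fold change -0.94, SE 0.042, limma adjusted p = 0.000158). NOP58, which pairs with NOP56 in this particle, was 46.6 and 50.4 FPKM against 29.0 and 29.9 FPKM (log2 fold change -0.70, SE 0.055, limma adjusted p = 0.000595). SNU13, the core protein of this particle that was not a member, had a log2 fold change of -0.27. The log2 fold changes of these core proteins ranged from -1.51 to -0.27, and the differences between them were not tested.

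The box H/ACA snoRNPs guide the conversion of uridine to pseudouridine, and all 3 of their proteins among the members fell. DKC1 (dyskerin), the pseudouridine synthase, was 72.6 and 70.1 FPKM in sh-NC and 29.0 and 27.5 FPKM in sh-LDB1 (log2 fold change -1.31, SE 0.049, limma adjusted p = 0.00012). NHP2, another protein of this particle, had a log2 fold change of -1.07. GAR1, the third protein of the particle among the members, was 23.7 and 19.9 FPKM in sh-NC and 16.5 and 14.1 FPKM in sh-LDB1. The groups of GAR1 did not overlap, but its spread was the widest of this role (log2 fold change -0.48, SE 0.115, limma adjusted p = 0.0197). Its call was lost under 4 settings: without sh-LDB1 replicate 2 the log2 fold change was -0.38 (adjusted p = 0.0812), without sh-NC replicate 1 it was -0.36 (adjusted p = 0.0639), with libraries scaled to an equal sum it was -0.32 (adjusted p = 0.0615), and with no filter on low values the adjusted p was 0.0568.

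NOLC1, a chaperone of snoRNPs on their way to the nucleolus, was 86.7 and 89.4 FPKM in sh-NC and 41.8 and 40.4 FPKM in sh-LDB1 (log2 fold change -1.08, SE 0.043, limma adjusted p = 0.000134). RRP9, the protein specific to the U3 snoRNP, which is needed for early cuts of the precursor, had a log2 fold change of -0.97.

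The third role was that of scaffold, chaperone and regulator of the nucleolus. All 6 members with this role fell, 3 of them past 2-fold, and their median log2 fold change of -1.20 was the lowest of the 5 roles. PA2G4 (EBP1), a growth-regulated protein bound to ribosome precursors, was 88.9 and 95.9 FPKM in sh-NC and 20.4 and 21.1 FPKM in sh-LDB1. It fell to 22.4% of control, the largest fall among the 41 members tested (log2 fold change -2.10, SE 0.055, limma adjusted p = 8.1e-05). LYAR, a nucleolar zinc finger protein that promotes processing of the precursor, was 46.0 and 42.3 FPKM against 13.7 and 14.9 FPKM (log2 fold change -1.56, SE 0.070, limma adjusted p = 0.000158). NPM3, a histone chaperone of the nucleoplasmin family, was 59.1 and 51.1 FPKM against 19.3 and 19.0 FPKM (log2 fold change -1.47, SE 0.080, limma adjusted p = 0.000236).

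The remaining members with this role, NCL, NPM1 and DDX21, did not reach 2-fold. NCL (nucleolin), which binds the nascent precursor, was 123.4 and 121.5 FPKM in sh-NC and 63.4 and 63.8 FPKM in sh-LDB1 (log2 fold change -0.94, SE 0.038, limma adjusted p = 0.000134). NPM1 was 468.9 and 498.6 FPKM against 301.1 and 297.4 FPKM, 61.9% of control (log2 fold change -0.69, SE 0.050, limma adjusted p = 0.000474). DDX21, an RNA helicase that acts in both polymerase I transcription and processing, was 102.8 and 105.4 FPKM against 73.7 and 70.2 FPKM (log2 fold change -0.53, SE 0.045, limma adjusted p = 0.000765). After quantile normalization the log2 fold changes of NPM1 and DDX21 were -0.43 and -0.32, and both still passed. For NPM1 the table held 13 rows of pseudogenes and for PA2G4 3 rows, and how the authors' counting divided reads among such copies is not given in the sources used here.

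**Figure D2:**
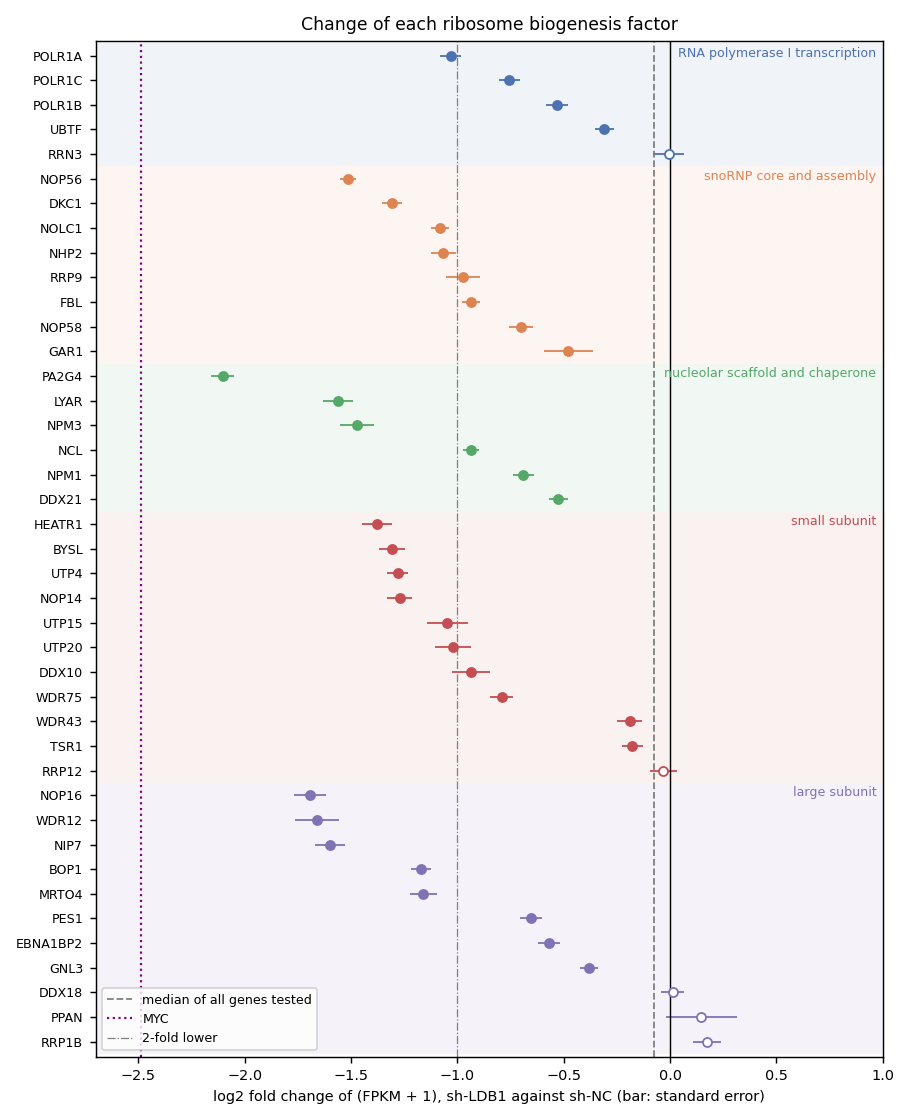
Log2 fold change of log2(FPKM + 1), sh-LDB1 against sh-NC, for the 41 members tested, ordered by size within each role. Filled points have a limma adjusted p below 0.05, open points do not, and bars are standard errors. The dashed line is the median of all genes tested (-0.08), the dotted line is MYC (-2.49) and the dash-dot line marks 2-fold lower. The 36 filled points all lie below 0, and PA2G4 at -2.10 is the farthest.

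The fourth role was assembly of the small subunit. Of 11 members 10 fell, 6 of them past 2-fold, with a median log2 fold change of -1.02. HEATR1, a large protein that links polymerase I transcription to the first steps of processing, was 16.3 and 18.3 FPKM in sh-NC and 6.08 and 5.97 FPKM in sh-LDB1 (log2 fold change -1.38, SE 0.072, limma adjusted p = 0.000217). BYSL (bystin), needed for late maturation of the small subunit, was 36.6 and 35.5 FPKM against 14.6 and 13.3 FPKM (log2 fold change -1.31, SE 0.060, limma adjusted p = 0.000167). UTP4 (cirhin) was 25.3 and 25.2 FPKM against 10.1 and 9.54 FPKM (log2 fold change -1.28, SE 0.049, limma adjusted p = 0.000124). In each of these 3 genes both sh-LDB1 values lay far under the controls.

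HEATR1, UTP4, UTP15, WDR75 and WDR43 belong to 1 early complex of the precursor, and their values within it were unequal. UTP15 had a log2 fold change of -1.05 and WDR75 of -0.79. WDR43 was 29.7 and 30.7 FPKM in sh-NC and 27.5 and 25.2 FPKM in sh-LDB1. Its log2 fold change was only -0.19 (SE 0.059, limma adjusted p = 0.0433). The call was lost when any 1 library was left out (log2 fold changes from -0.25 to -0.13) and under each of the 4 other scalings (-0.09 to -0.02). It was also lost without limma's trend (adjusted p = 0.0801), with no filter on low values (0.0777) and with a replicate block (0.069). For the remaining genes of this role, NOP14, UTP20 and DDX10, log2 fold changes lay between -1.27 and -0.94.

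At the other end of this role, TSR1, a late factor that sits on the small subunit before its release, was 20.1 and 19.0 FPKM in sh-NC and 17.3 and 17.1 FPKM in sh-LDB1. It fell to 87.8% of control (log2 fold change -0.18, SE 0.050, limma adjusted p = 0.0317). That call was lost without sh-LDB1 replicate 1, without sh-LDB1 replicate 2 and without sh-NC replicate 1 (-0.19, -0.17 and -0.14) and under the 4 other scalings (-0.08 to -0.01). It was also lost without limma's trend (adjusted p = 0.0628) and with a replicate block (0.0537). RRP12, which helps export both subunits, was 11.5 and 11.4 FPKM in sh-NC and 10.7 and 11.8 FPKM in sh-LDB1. The 2 groups of RRP12 overlapped (log2 fold change -0.03, SE 0.062, limma adjusted p = 0.68).

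The fifth role was assembly of the large subunit, with log2 fold changes from -1.69 to 0.17. Of 12 members 11 were tested, 8 fell and 5 fell past 2-fold, and the median log2 fold change was -0.65. NOP16, a nucleolar protein of large subunit precursors, was 19.5 and 17.6 FPKM in sh-NC and 5.21 and 4.85 FPKM in sh-LDB1 (log2 fold change -1.69, SE 0.073, limma adjusted p = 0.000152). WDR12 was 9.24 and 10.4 FPKM against 2.19 and 2.67 FPKM (log2 fold change -1.66, SE 0.103, limma adjusted p = 0.00033). NIP7, needed for the maturation of the large subunit, was 13.0 and 11.8 FPKM against 3.39 and 3.45 FPKM (log2 fold change -1.60, SE 0.071, limma adjusted p = 0.000156). All 3 stood between 24.8% and 27.6% of their control means.

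WDR12 works with PES1 and BOP1 in the PeBoW complex, which is needed to cut the precursor of the large subunit. BOP1 was 106.2 and 100.5 FPKM in sh-NC and 44.7 and 46.0 FPKM in sh-LDB1 (log2 fold change -1.17, SE 0.047, limma adjusted p = 0.000137). PES1 was 34.9 and 33.6 FPKM against 20.7 and 22.1 FPKM (log2 fold change -0.65, SE 0.052, limma adjusted p = 0.000639). The order of the falls in this complex was therefore WDR12, BOP1 and PES1, with no test of the differences between genes. Of the other members of this role that fell, MRTO4, a factor for assembly of the ribosomal stalk, had a log2 fold change of -1.16, EBNA1BP2 of -0.57 and GNL3 (nucleostemin) of -0.38 (-0.21 with scaling to an equal sum, still past the test).

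In contrast, 3 of the large subunit factors tested had a mean above that of the controls, and none of them passed in the reported setting. DDX18, an RNA helicase, was 29.7 and 31.8 FPKM in sh-NC and 31.5 and 30.5 FPKM in sh-LDB1 (log2 fold change 0.01, SE 0.052, limma adjusted p = 0.857). With libraries scaled to an equal sum DDX18 rose (log2 fold change 0.18, limma adjusted p = 0.0327). It also rose with voom on estimated reads (0.14, limma adjusted p = 0.0274). The deposited values also held 3 rows of DDX18 pseudogenes, with which reads may have been shared. RRP1B, a nucleolar protein that binds chromatin, was 21.6 and 24.1 FPKM against 25.4 and 26.3 FPKM (log2 fold change 0.17, SE 0.067, limma adjusted p = 0.0763). It was the 1 member whose sh-LDB1 values both exceeded the controls, and it did pass when the libraries were scaled in other ways (log2 fold changes 0.27 to 0.34) and without sh-NC replicate 2 (0.25, adjusted p = 0.0221). PPAN was 4.14 and 2.89 FPKM against 3.60 and 4.32 FPKM (log2 fold change 0.15, SE 0.166, limma adjusted p = 0.473), and its groups overlapped.

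NOP2, the methyltransferase of the large subunit RNA, was the only member under the filter. It was 0.277 and 0.260 FPKM in sh-NC and 0.253 and 0.381 FPKM in sh-LDB1. This corresponded to an estimated 17 to 26 reads per library, and the difference was not tested. NOP2 lies at chr12:6556863-6568691 on the minus strand (GRCh38, GENCODE release 44), and 54.4% of its exonic bases also belong to a readthrough gene on the same strand (ENSG00000285238), which was not analysed here. PPAN, at chr19:10106362-10112012 on the plus strand, shares 49.2% of its exonic bases with P2RY11 and the readthrough gene PPAN-P2RY11. The levels of these 2 genes are uncertain for this reason, since the counting of shared bases is not given in the sources used here.

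Exonic bases shared with another gene on either strand were found in 22 members, and the use of strand in counting was not stated. The 20 members with no such overlap had a median log2 fold change of -0.94 with 17 falls. Of the members with overlap 21 were tested, and they had a median of -1.05 with 19 falls. Overlap was most extensive, after NOP2 and PPAN, in NHP2 (28.1% of exonic bases, opposite strand) and TSR1 (26.9%, opposite strand).

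Several of these genes carry snoRNA genes in their introns, so that 1 transcript serves both the protein and the guide RNA. In the annotation 9 of the 42 members (21.4%) held at least 1 snoRNA gene within their bounds on the same strand. This compared with 317 of 13135 tested genes found in the annotation (2.41%). The related scaRNA genes were counted too, and a position inside an intron was not checked. The 9 members were POLR1C, NOP56, NOP58, DKC1, NCL, WDR43, TSR1, PPAN and GNL3, with 5 such genes in NOP56 (SNORA51, SNORD110, SNORD56, SNORD57 and SNORD86). Of these 9 host genes 8 fell, with a median log2 fold change of -0.70, while 28 of 32 tested members with no such gene fell, with a median of -1.03. The snoRNAs themselves were not analysed here.

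To describe the sequence around the start of these genes, promoters of 300 bases from RefSeq (GRCh38.p14, 250 before the start and 50 from it on) were searched for CACGTG, the E-box bound by MYC with MAX, which reads the same on both strands. A promoter was found for 36 of the 42 members. The E-box was present in 11 of them (30.6%), against 931 of 8789 promoters of genes tested (10.6%) and 2030 of all 27305 promoters (7.44%). The members with it were BYSL, UTP4, NOP14, MRTO4, UTP20, RRP9, FBL, PES1, EBNA1BP2, WDR43 and NOP2. In 10 of the 11 the first base of the box lay within 50 bases of the start, compared with 387 of the 931 tested genes with a box (41.6%). Many members are known to depend on MYC, so higher shares of this box may follow from the choice of the list alone. Parts of 4 promoters are shown because they contrast members that fell strongly with and without the box. They run from 120 bases before the start through the first 30 bases of the transcript, 5′ to 3′ on the strand of the gene, with the E-box in capitals. UTP4 is at chr16:69132529-69132678 (plus strand), NOP14 at chr4:2963377-2963526 (minus strand), MRTO4 at chr1:19251685-19251834 (plus strand), and PA2G4, which has no E-box, at chr12:56104439-56104588 (plus strand).
UTP4: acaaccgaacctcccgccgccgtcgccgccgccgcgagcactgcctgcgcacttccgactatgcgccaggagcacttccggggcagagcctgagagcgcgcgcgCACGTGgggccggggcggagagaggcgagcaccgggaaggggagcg
NOP14: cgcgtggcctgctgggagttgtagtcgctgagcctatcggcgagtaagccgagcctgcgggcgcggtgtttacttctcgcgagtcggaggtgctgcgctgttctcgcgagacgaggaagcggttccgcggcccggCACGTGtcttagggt
MRTO4: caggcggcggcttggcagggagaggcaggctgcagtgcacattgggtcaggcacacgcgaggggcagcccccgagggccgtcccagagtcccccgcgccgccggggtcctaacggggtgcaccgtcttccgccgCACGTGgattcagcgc
PA2G4: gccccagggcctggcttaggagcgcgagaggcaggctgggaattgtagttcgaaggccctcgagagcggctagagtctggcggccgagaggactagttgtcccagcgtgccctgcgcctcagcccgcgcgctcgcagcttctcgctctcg

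Log2 fold changes were then set beside the presence of the box, with no test of the difference. All 10 tested members with an E-box in the promoter fell, with a median log2 fold change of -0.997. Of the 25 members with a promoter and no E-box 23 fell, with a median of -0.94, and PA2G4 was among them. The lowest value was -1.31 with the box and -2.10 without it. In UTP4 the box began 16 bases before the start, and in NOP14 and MRTO4 it began at bases 16 and 15, with the start itself counted as base 1. BYSL fell more than these 3, but its box began at base 29 and so reached beyond the stretch shown. Sites of GATA factors, spelled AGATAA or TGATAA with a last letter of either A or G and searched on both strands, were found in 7 of the 36 member promoters (19.4%), against 14.5% of promoters of genes tested and 25.5% of all promoters. A match of letters is a description of the sequence, and no binding was measured in these data.

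Furthermore, 133 other genes of ribosome biogenesis, which were not members, were examined on the same scale. Of the 132 tested, 90 fell and 14 rose, with a median log2 fold change of -0.44. They included 11 other genes of RNA polymerase I transcription, of which 7 fell and 0 rose (0 also at an unadjusted p below 0.05, and 2 with voom), with values from -2.19 for POLR1E, a polymerase I subunit, to 0.22 for TTF1, the termination factor. Of 50 other large subunit genes 39 fell and 4 rose, from NOC3L (-2.09) to ZNF622 (1.43). Of 45 other small subunit genes tested 26 fell and 6 rose, from RCL1 (-1.83) to NOL6 (0.99). Among 10 other snoRNP genes 8 fell and 1 rose, from RUVBL1 (-1.31), a helicase of snoRNP assembly, to SHQ1 (0.29). For the 16 genes of the nuclear exosome and spacer processing 10 fell and 3 rose, from EXOSC2 (-1.64) to EXOSC1 (0.46). These counts moved with the scaling of the libraries. Scaled to an equal sum, 72 of the 132 fell and 30 rose, with a median of -0.28. In that setting 4 of the other snoRNP genes fell (median -0.14), and 5 fell after quantile normalization. The equal sum gave 22 falls and 14 rises among the small subunit genes, 31 and 8 among the large subunit genes, 7 and 3 among the polymerase I genes, and 8 and 4 for the exosome list.

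Genes of the ribosomal proteins and of tRNA charging were also compared. Of 79 cytosolic ribosomal protein genes 73 fell and 0 rose (0 also at an unadjusted p below 0.05 and with voom, and 2 after quantile normalization), with a median log2 fold change of -0.63 and a range from -1.04 (RPL9) to -0.07 (RPS23). Quantile normalization gave 54 falls and a median of -0.35 for this list. For 75 tested genes of mitochondrial ribosomal proteins the median was -0.44, with 50 falls and 8 rises, from MRPS25 (-1.66) to MRPS6 (1.31). With scaling to an equal sum it was -0.28, with 40 falls and 13 rises. The 20 cytosolic aminoacyl-tRNA synthetases, which charge tRNAs for translation, had a median of -0.60 with 17 falls and 2 rises, from IARS1 (-1.23) to RARS1 (0.95). The median of the members, -0.94, lay under the median of each of these lists as deposited, and the difference between lists was not tested.

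**Figure D3:**
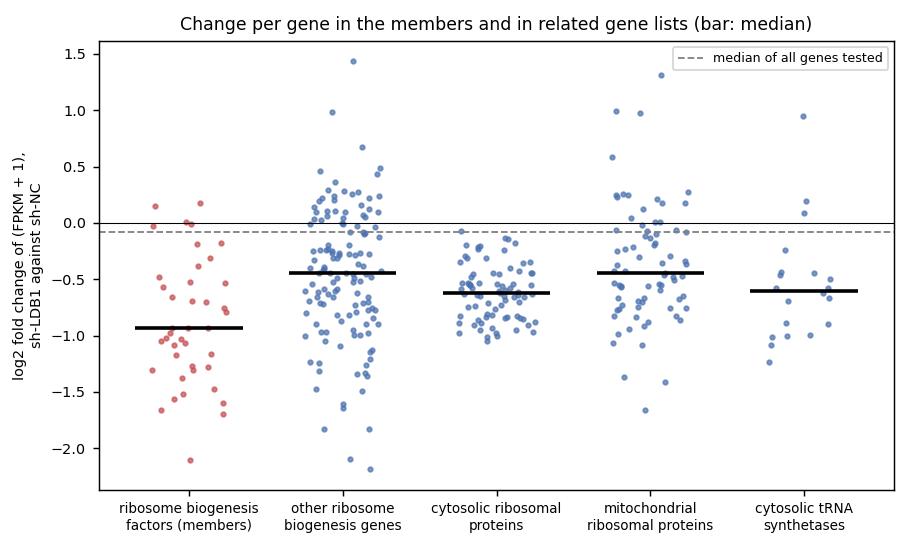
Log2 fold change of log2(FPKM + 1), sh-LDB1 against sh-NC, of each tested gene in the members and in 4 related lists. Each point is a gene with sideways jitter, thick bars are list medians and the dashed line is the median of all genes tested (-0.08). The medians are -0.94 for the members, -0.44 for other ribosome biogenesis genes, -0.63 for cytosolic and -0.44 for mitochondrial ribosomal proteins, and -0.60 for tRNA synthetases.

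The position of the members against all other genes was examined under each setting of processing. Scaling to an equal sum of FPKM raised the median of all genes by 0.14, to 0.06, and that of the members to -0.79. The members' median minus that of all genes ranged from -0.96 to -0.79 over the settings. Over all genes the share of calls that were falls was 55.6% as deposited (4978 falls and 3983 rises) and 45.4% after scaling to an equal sum (4047 falls and 4876 rises). Among the members this scaling gave 33 falls and 2 rises, the rises being RRP1B and DDX18.

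**Figure D4:**
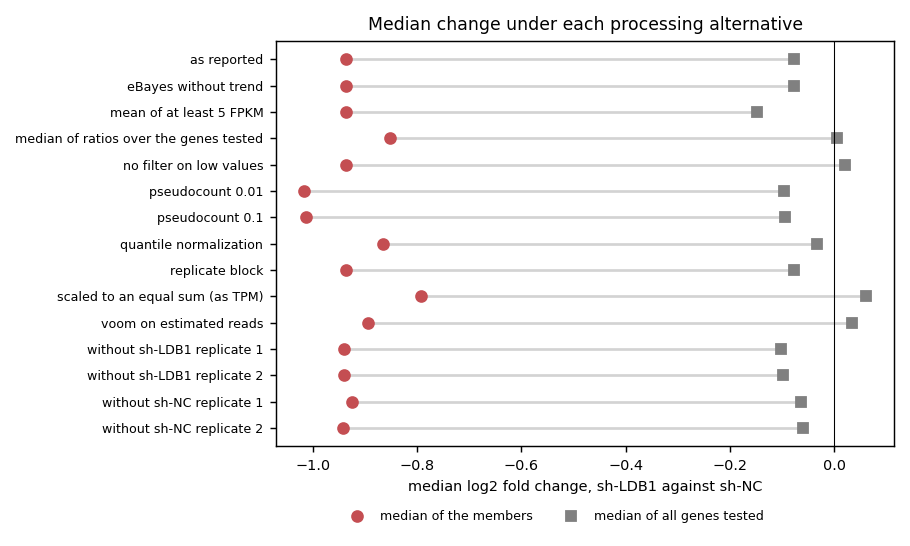
Median log2 fold change, sh-LDB1 against sh-NC, of the members (red circles) and of all genes tested (grey squares) under the reported setting and 14 alternatives. The distance within each pair lies between 0.79 and 0.96, and both medians shift with the scaling of the libraries.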

How the data were processed

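Total RNA of the cells labelled NB4 was extracted with Trizol and made into libraries with an Illumina TruSeq RNA kit. The authors filtered the reads, mapped them to hg38 with HISAT2 2.0.5 (submitters' processing notes) and deposited 1 table of FPKM per gene and library, with replicates kept apart. The counting tool, annotation and use of strand are not given in the sources used here. Over 19789 genes above 0 in all libraries the median ratio to the geometric mean was 1.0083 in every library, so that a scaling of this kind had been applied before deposit.

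Sample titles gave the group and replicate number of each library, with 2 libraries per group. The divisor of each library was read from the steps between low FPKM values of genes with 1 annotated transcript. Between 90.9% and 91.3% of these values per library were whole reads within 0.05 read. Genes averaging 1 FPKM or more were tested as log2(FPKM + 1) with limma 3.58.1 in R 4.3.3 (eBayes with trend, no replicate block, Benjamini-Hochberg adjustment). A 2-fold call also required a fold change above 2 or below 0.5. The steps were tested on simulated data. Positions, exonic overlap and snoRNA genes within gene bounds came from GENCODE release 44, in which 28193 of the table's genes were found, and promoters from RefSeq (GRCh38.p14). Python 3.11.15 was used.

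The members and gene lists were chosen with earlier results of these data known. In each role the 3 largest and 2 smallest changes were named with all values, with any member that was untested or went against its role and NCL, NPM1, FBL, POLR1A, UBTF and RRN3. In other lists the lowest and highest gene was named. The promoters shown were to be the 3 members with the largest falls that hold an E-box and the 1 without it. BYSL was passed over because its box lies outside the shorter stretch printed. The E-box distances, snoRNA hosts, exonic overlap, PeBoW, SNU13 and the early small subunit complex were described after seeing the data, and so was voom on estimated reads. Planned protein features were not analysed here.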

Additional observations from a re-analysis of the deposited data

How the results depend on the processing

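With 2 libraries per group the precision is limited, and NOP2 and PPAN rest on few reads. Members that fell numbered between 33 and 36 under all alternatives. The median log2 fold change of the members was -0.85 with median-of-ratios scaling over the genes tested, -0.86 with quantile normalization, -0.79 with scaling to an equal sum, -1.02 and -1.01 with pseudocounts of 0.01 and 0.1, and -0.89 with voom on estimated reads, which was chosen after seeing the data. Members that rose numbered 1, 1, 2 and 2 with median of ratios, quantile, equal sum and voom, and 0 to 1 when 1 library was left out (RRP1B, without sh-NC replicate 2). Falls past 2-fold numbered 12 with scaling to an equal sum and 12 with limma's treat, which tests against a fold of 2. The other ribosome biogenesis genes that rose numbered 25, 30 and 27 with quantile, equal sum and voom, and 7 to 14 when 1 library was left out, with 7 without sh-LDB1 replicate 1 and 9 without sh-LDB1 replicate 2. Values that turned sign belonged to genes that had not passed: RRP12 (0.061, 0.073, 0.128 and 0.092) and RRN3 (0.086, 0.109, 0.153 and 0.121) with median of ratios, quantile, equal sum and voom. When 1 library was left out, RRP12 ranged from -0.092 to 0.030, RRN3 from -0.085 to 0.071, DDX18 from -0.035 to 0.058 and PPAN from -0.054 to 0.348. The causes of these changes were not tested. The correlation of deviations between same-numbered libraries was 0.020. With 2 libraries per group this cannot show whether they shared a culture or a batch, and the labels do not say. With the replicate block 34 members fell, with the calls of WDR43 and TSR1 lost, 19 of them past 2-fold, and 87 other ribosome biogenesis genes fell and 11 rose. LDB1 ranged from -3.69 to -3.40 and MYC from -2.53 to -2.31 over all alternatives.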
